A study of Mus musculus with 75 samples.

Results

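The liver response to AM251 in obese mice with an intact cannabinoid receptor 1 (CB1) was read from 10 of the 75 arrays of the series. They were taken by their titles, 5 from AM251-dosed and 5 from vehicle-dosed wild-type mice, all fed the high-fat diet, and no measured value entered that choice. AM251 is an inverse agonist of CB1. It was given by gavage at 10 mg per kg in methylcellulose in the late afternoon on each of 2 days, vehicle mice received methylcellulose alone, and livers were collected on the morning of day 3. Both groups were male littermate controls of a CB1-/- line backcrossed to C57BL/6J and re-derived on C57BL/6N. From 2 months of age they ate a diet with 59.4% of energy from fat for 14 weeks, and they were caged singly for the last week before dosing. For comparison, 9 livers of CB1-/- mice on the same diet (5 AM251, 4 vehicle) and 10 livers of wild-type mice on chow with 13% of energy from fat (5 AM251, 5 vehicle) were used. Livers of CB1-/- mice on chow (5 AM251, 5 vehicle) entered the fit for the spread within groups but no comparison. All these groups began their diet at 2 months of age and kept it for 14 weeks. The knockout was of the whole body, so the CB1-/- mice lacked the receptor in brain and fat as well as in liver.

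CB1 is a G protein-coupled receptor for endocannabinoids, lipid messengers made from membrane phospholipids. It is known chiefly from brain, where it acts on feeding, and also from hepatocytes, where its activation raises fatty acid synthesis. Hepatic lipid synthesis is set by the SREBP transcription factors, of which SREBP-2 mainly drives cholesterol synthesis and SREBP-1c fatty acid synthesis. The Insig proteins hold SREBPs in the endoplasmic reticulum when sterols are plentiful. Burning of fatty acids is raised by PPARalpha, a nuclear receptor activated by fatty acids.

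Transcript levels are log2 intensities of 1-colour arrays, and changes are AM251 minus vehicle on the log2 scale, with the standard error (SE) from limma and p adjusted by Benjamini-Hochberg over 19147 genes. The threshold was an adjusted p of 0.05, and "rose" and "fell" are used of genes past it. Levels of different genes are not on a common scale. Median intensities of the 39 liver arrays lay between 25.8 and 28.7, and 5 arrays per group limit the precision of every value. The chow-fed knockout vehicle group, used for the pooled spread alone, held the array least like the others, at a mean correlation of 0.963. The tissue carried its defining markers, with albumin (Alb) at a mean of 14.88 ± 0.02 in the AM251 livers and 14.88 ± 0.05 in the vehicle livers (SD, n = 5 each). The summed linear intensity of the 9 measured hepatocyte markers ran from 107310 to 113630 with AM251 and from 113130 to 121900 with vehicle, and 2 of the 9, Tat and Arg1, fell.

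In all, 366 genes passed the threshold, 1.91% of those tested, 170 of them higher (0.888%) and 196 lower (1.02%) with AM251. These 2 shares stand beside every count of list members below, and 1 called member is a result about that gene alone. The AM251 and vehicle arrays did not overlap for 730 genes (3.81%), with AM251 higher for 386 (2.02%) and lower for 344 (1.8%). The median change of all genes was -0.01. None of the 16 measured macrophage markers, 14 endothelial markers, 14 stellate cell markers, 8 bile duct markers, 11 lymphocyte markers or 9 neutrophil markers passed. Their largest median shift was -0.17, in the neutrophil list. Of 7 adipocyte markers 1 fell, Cidea, and none of 7 exocrine pancreas or 2 red blood cell markers passed. Summed macrophage marker intensity ran from 6659 to 9994 with AM251 and from 5090 to 11097 with vehicle. In whole liver, fewer cells of a type and less RNA per cell cannot be told apart.

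Most genes that build cholesterol fell. Of 7 measured genes of the mevalonate arm, which runs from acetyl-CoA to farnesyl and geranylgeranyl units, 6 fell, and of 10 measured genes from squalene to cholesterol all 10 did. The median change was -1.34 in the first and -1.15 in the second arm. With single arrays left out, 5 to 6 and 10 of these genes stayed past the threshold. The mean distance of the mevalonate genes from their vehicle means lay between -1.72 and -1.17 across the AM251 arrays and between -0.48 and 0.39 across the vehicle arrays, ranges that did not meet.

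Several of these genes carry, close to their transcription start and before or after it, the CCAAT box bound by the factor NF-Y. In 1 of them stands a match to TCACNCCAC, the letters of a sterol response element of the type bound by SREBPs. The windows printed here, from 250 bases before to 50 bases after the transcription start (RefSeq, GRCm38.p6), are shown because they hold CCAAT and belong to 4 genes of cholesterol synthesis that fell without overlap of the groups and to Fasn, of fatty acid synthesis. Capitals mark CCAAT or its complement ATTGG and, in Hmgcs1, the match to TCACNCCAC that starts 137 bases before the transcription start.
Mvd (chr8:122443373-122443672, minus strand): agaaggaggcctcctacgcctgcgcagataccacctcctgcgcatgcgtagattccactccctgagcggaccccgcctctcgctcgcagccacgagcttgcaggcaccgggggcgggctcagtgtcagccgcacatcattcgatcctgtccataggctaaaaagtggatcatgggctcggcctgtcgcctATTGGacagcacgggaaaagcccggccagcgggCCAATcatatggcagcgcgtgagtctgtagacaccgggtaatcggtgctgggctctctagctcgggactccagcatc
Nsdhl (chrX:72918271-72918570, plus strand): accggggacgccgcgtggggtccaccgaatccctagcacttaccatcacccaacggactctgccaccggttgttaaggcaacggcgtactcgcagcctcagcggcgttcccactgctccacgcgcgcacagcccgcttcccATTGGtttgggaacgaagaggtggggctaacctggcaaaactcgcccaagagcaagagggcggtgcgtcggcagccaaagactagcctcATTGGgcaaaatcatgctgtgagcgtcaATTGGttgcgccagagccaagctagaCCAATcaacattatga
Hmgcs1 (chr13:119690101-119690400, plus strand): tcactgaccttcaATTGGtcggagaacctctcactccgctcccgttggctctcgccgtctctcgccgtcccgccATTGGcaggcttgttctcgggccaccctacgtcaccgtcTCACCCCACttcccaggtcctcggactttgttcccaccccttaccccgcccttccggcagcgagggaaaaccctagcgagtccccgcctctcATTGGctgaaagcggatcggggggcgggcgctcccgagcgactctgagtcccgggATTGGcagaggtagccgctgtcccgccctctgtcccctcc
Hsd17b7 (chr1:169969156-169969455, minus strand): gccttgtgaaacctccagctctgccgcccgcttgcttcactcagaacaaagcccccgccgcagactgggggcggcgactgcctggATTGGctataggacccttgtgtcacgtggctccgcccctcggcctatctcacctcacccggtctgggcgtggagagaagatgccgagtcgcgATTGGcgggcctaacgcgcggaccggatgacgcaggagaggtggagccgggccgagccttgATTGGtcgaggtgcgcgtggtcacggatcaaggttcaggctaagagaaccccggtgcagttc
Fasn (chr11:120824498-120824797, minus strand): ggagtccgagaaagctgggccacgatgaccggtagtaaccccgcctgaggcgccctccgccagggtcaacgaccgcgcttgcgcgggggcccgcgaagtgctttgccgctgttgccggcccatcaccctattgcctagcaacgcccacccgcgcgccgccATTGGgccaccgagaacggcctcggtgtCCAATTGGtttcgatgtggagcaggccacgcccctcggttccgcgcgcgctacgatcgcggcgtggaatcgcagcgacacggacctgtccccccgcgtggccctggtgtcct
Searched on both strands, CCAAT stood in 15 of 18 windows (83.3%) of the cholesterol synthesis genes that fell together with Insig1, for 15 of 17 of which a window was given. It stood in 7 of 11 windows (63.6%) of the fatty acid synthesis genes that fell and in 0 of 8 windows of the mitochondrial oxidation genes that rose. Over all 32851 windows the share was 37.4%. TCACNCCAC stood in 1 of the 18, 0 of the 11 and 0 of the 8 windows and in 1.24% of all. The E-box CACGTG stood in 4 of 18, 0 of 11 and 0 of 8 windows, against 7.15% of all, and the direct repeat AGGTCANAGGTCA in none of these windows and in 0.0396% of all. None of these motifs contains another, and in Fasn a CCAAT and an ATTGG share letters. These are matches of letters, not measured binding sites, and an element that departs from the searched letters was not counted.

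The farnesyl diphosphate synthase gene Fdps, which makes the branch-point isoprenoid, had the largest change of the pathway. Its levels were 9.14, 9.35, 9.68, 9.74 and 8.91 in the AM251 livers, against 10.88, 11.40, 11.98, 12.16 and 11.79 in the vehicle livers. Every AM251 liver was over 1 unit below every vehicle liver, and Fdps fell by 4.85-fold (-2.28 ± 0.22 (SE), adjusted p = 5.44e-09). Mvd, which decarboxylates mevalonate diphosphate, changed by -2.15 ± 0.32, and Pmvk, the kinase before it, by -1.83 ± 0.22 (adjusted p = 3.51e-05 and 6.81e-07). Hmgcs1, the synthase that supplies HMG-CoA, changed by -1.34 ± 0.14 and the isomerase gene Idi1 by -1.25 ± 0.22 (adjusted p = 6.79e-08 and 0.000346). Acat3, a thiolase chosen after its values were seen, changed by -1.29 ± 0.27. Mevalonate kinase, Mvk, changed least of those that fell, by -0.66 ± 0.16. Ggps1, which makes geranylgeranyl diphosphate for protein prenylation and not for sterols, had a change of 0.11 ± 0.11 (SE), adjusted p = 0.783. Each alternative was run on its own, and the call was lost for Mvk without vehicle array 3, 4 or 5 or without AM251 array 37 or 39 (adjusted p from 0.0507 to 0.0712).

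In the sterol arm, Nsdhl, a decarboxylating enzyme of the C4 demethylation steps, was at 3.73, 4.48, 4.52, 3.91 and 3.46 with AM251, against 5.68, 5.34, 6.34, 6.27 and 6.27 with vehicle. These ranges did not meet, and the change was -1.96 ± 0.20 (SE), adjusted p = 3.84e-08, or -1.29 on the log2(intensity + 16) scale. Sqle, squalene epoxidase, was at 8.01, 8.02, 8.16, 8.66 and 7.10 with AM251, against 8.78, 8.63, 10.47, 10.09 and 9.87 with vehicle. Here vehicle arrays 1 and 2 were the lowest of their group and lay near the top of the AM251 range, array 2 just inside it, and the change was -1.58 ± 0.30 (SE), adjusted p = 0.00109. All 5 probe sets of Sqle gave changes between -1.61 and -1.52. The last enzyme, Dhcr7, changed by -1.63 ± 0.18, the cyclase Lss by -1.29 ± 0.21 and the lanosterol demethylase Cyp51 by -1.33 ± 0.23. Msmo1, Sc5d, Hsd17b7 and Tm7sf2 changed by -1.01, -1.004, -0.95 and -0.79, and Ebp, the sterol isomerase, by -0.34 ± 0.07. Adjusted p for these 8 ran from 1.93e-07 for Dhcr7 to 0.0046 for Ebp. An alternative ended the call of Ebp in the fit on the 10 arrays alone (adjusted p = 0.0584).

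The feedback arm moved in part. Insig1, itself an SREBP target, was at 11.16, 10.80, 10.63, 10.51 and 10.21 in AM251 livers, against 12.31, 12.16, 12.69, 12.33 and 12.12 in vehicle livers. The lowest vehicle liver was well above the highest AM251 liver, and Insig1 had the smallest adjusted p of all 19147 genes (-1.66 ± 0.15 (SE), adjusted p = 2.82e-09). Insig2 fell by 1.7-fold (-0.76 ± 0.20 (SE), adjusted p = 0.0354). Srebf2, the gene of SREBP-2, was at 6.46, 6.52, 6.38, 6.75 and 6.17 with AM251 and 6.20, 6.47, 6.40, 6.47 and 6.71 with vehicle, with a change of 0.01 ± 0.12 (SE), adjusted p = 0.993; its 2 dimmer probe sets gave -0.35 and -0.25. Scap, the escort of SREBPs, and the proteases Mbtps1 and Mbtps2 had changes of 0.02, 0.05 and 0.07, none past the threshold. The cholesterol transporter Npc1 (0.38) and the sterol carrier Stard4 (-0.43) were not past it either, nor was Mylip (0.43), a ubiquitin ligase induced by sterols. In the set of sterol efflux genes, 0 of 7 rose and 0 fell; Abca1 differed by 0.13, Abcg5 by 0.22, Abcg8 by 0.35, Lpcat3 by -0.33 and Pltp, with the largest difference of the set, by -0.87. Srebf1 was not analysed here. The call was lost for Insig2 without vehicle array 1 or 2 or without AM251 array 33, 35, 37 or 39 (adjusted p from 0.0551 to 0.205).

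**Figure D1:**
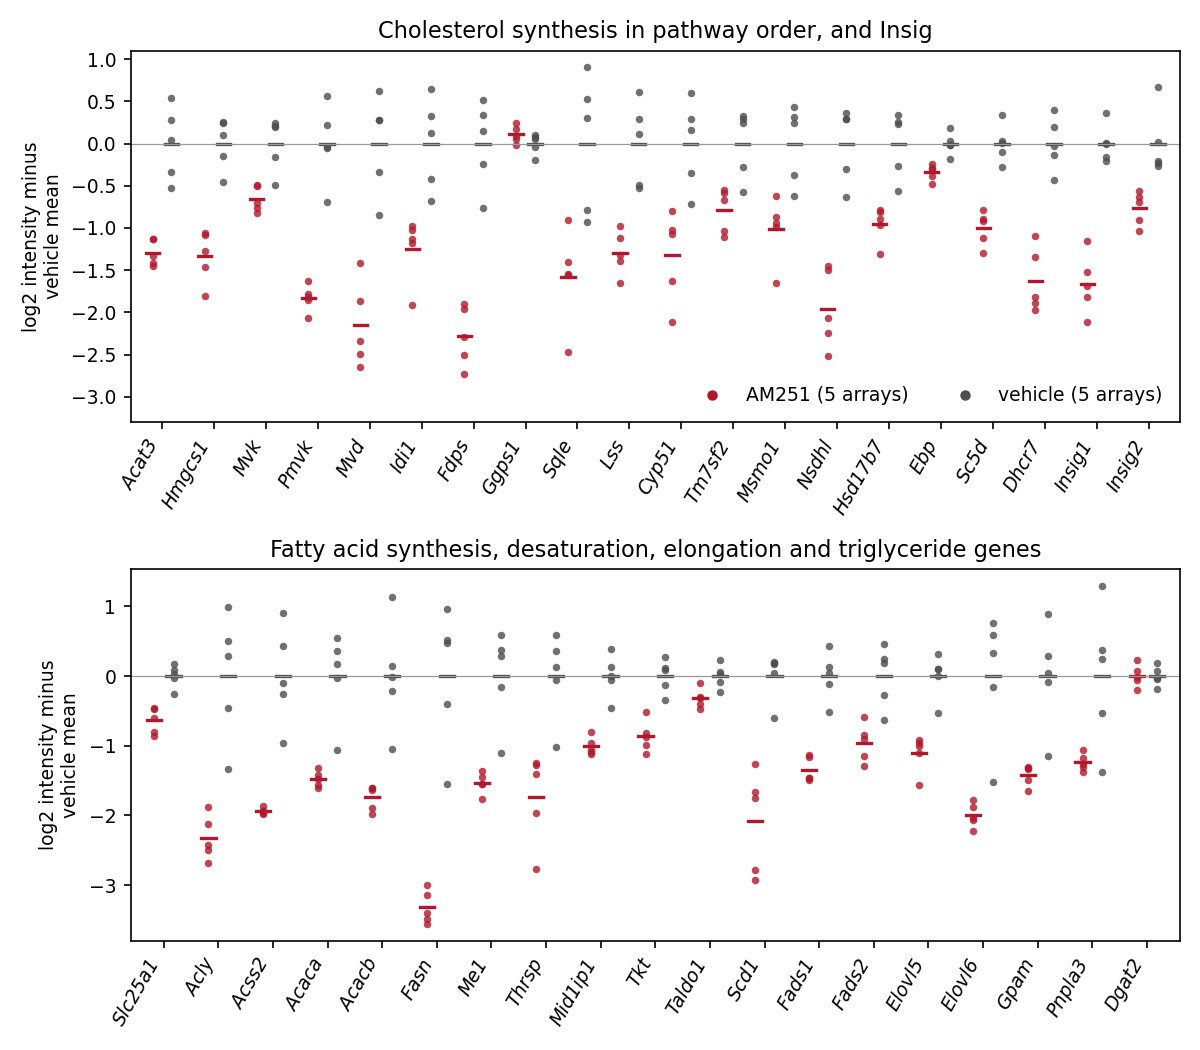
Log2 intensity of each array minus the mean of the 5 vehicle arrays for genes of cholesterol synthesis with Insig1 and Insig2 (upper panel) and of fatty acid synthesis, desaturation, elongation and triglyceride assembly (lower panel) in high-fat wild-type liver. Points are arrays and short bars are group means; AM251 livers lie below the vehicle livers for most genes, with Fasn the lowest at a mean of -3.32, while Ggps1 and Dgat2 are level with vehicle.

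Fatty acid synthesis genes fell in the same livers. Of 11 measured genes, 10 fell, with a median change of -1.53, and 8 to 10 remained past the threshold when single arrays were left out. Fasn, the fatty acid synthase, had the largest fall of all 19147 genes. Its levels were 6.08, 6.42, 6.01, 6.56 and 6.16 with AM251, against 8.01, 10.08, 10.52, 10.03 and 9.17 with vehicle. The AM251 livers lay close together while the vehicle livers spanned over 2 units, with array 1 the lowest, and Fasn fell by 9.97-fold (-3.32 ± 0.34 (SE), adjusted p = 3.84e-08). Acly, which cleaves citrate to acetyl-CoA in the cytosol, was at 8.10, 8.36, 8.29, 8.90 and 8.67 with AM251, against 9.45, 11.29, 11.79, 11.08 and 10.34 with vehicle. Its ranges did not meet, and the change was -2.33 ± 0.30 (SE), adjusted p = 3.33e-06.

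Acss2, which makes acetyl-CoA from acetate, changed by -1.94 ± 0.31 (SE), adjusted p = 9.33e-05. The carboxylases that make malonyl-CoA both fell, Acaca (-1.48 ± 0.20) and Acacb, the mitochondrial form whose malonyl-CoA blocks Cpt1 (-1.74 ± 0.30). A dim second probe set of Acaca gave -0.02, and the mean of both gave -0.75, still past the threshold. Malic enzyme, Me1, a source of NADPH, changed by -1.53 ± 0.25, and the lipogenic regulators Thrsp and Mid1ip1 by -1.74 ± 0.33 and -1.01 ± 0.17. Adjusted p for these 5 lay between 7.46e-06 (Acaca) and 0.00136 (Thrsp). Of the pentose phosphate genes, Tkt changed by -0.86 ± 0.21 and Taldo1 by -0.32 ± 0.09. The mitochondrial citrate carrier Slc25a1 had a change of -0.64 ± 0.23 (SE), adjusted p = 0.2, although its AM251 arrays were all below its vehicle arrays. The calls were lost for Tkt without vehicle array 2, 3 or 4 or without AM251 array 33 or 35 (adjusted p from 0.0514 to 0.0825) and Taldo1 in the fit on the 10 arrays alone, without vehicle array 2, 4 or 5 or without AM251 array 33, 35, 37 or 39 (adjusted p from 0.0693 to 0.203).

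Vehicle array 1 was the lowest vehicle liver for Fasn, Acly, Acaca, Acacb, Acss2, Me1 and Thrsp. Over the fatty acid synthesis list it stood at -0.80 from the vehicle mean, where the other 4 vehicle livers lay between -0.16 and 0.53 and the AM251 livers between -1.66 and -1.38. The same array was the highest for the acute phase genes Saa2, at 7.54, 7.38, 6.53, 9.86 and 7.12 with AM251 and 12.75, 10.14, 8.47, 8.55 and 8.45 with vehicle, and Orm2, at 6.32, 6.52, 6.37, 9.03 and 6.49 with AM251 and 11.42, 9.81, 6.90, 7.07 and 6.72 with vehicle. Neither acute phase gene passed the threshold (adjusted p = 0.389 and 0.462), their ranges overlapped, and the part of that array in the results was not tested beyond leaving it out.

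Enzymes that modify fatty acids followed in part, with 4 of 10 lower. Scd1, the main desaturase of liver, was at 12.99, 11.47, 11.33, 12.59 and 12.51 with AM251, against 13.66, 14.43, 14.45, 14.46 and 14.30 with vehicle. The groups did not overlap, and the change was -2.08 ± 0.25 (SE), adjusted p = 4.95e-07. A second, dimmer probe set of Scd1 gave -4.07 ± 0.47, larger and of the same sign. The elongases Elovl6 and Elovl5 changed by -1.99 ± 0.28 and -1.11 ± 0.16, and the desaturase Fads1 by -1.34 ± 0.13 (adjusted p = 1.47e-05, 1.53e-05 and 5.44e-09). Fads2 had a change of -0.95 ± 0.30 (SE), adjusted p = 0.109.

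Few genes that assemble triglyceride passed the threshold. Of 17 measured, 3 fell (1.02% of all genes did) and the median was 0.00. Gpam, the mitochondrial acyltransferase of the first step, was at 8.10, 7.95, 8.27, 8.26 and 8.29 with AM251, against 8.45, 9.52, 10.49, 9.88 and 9.63 with vehicle. No AM251 liver reached the lowest vehicle liver, array 1, which was nearest, and the change was -1.42 ± 0.29 (SE), adjusted p = 0.00297. Pnpla3 and Pnpla5, patatin-like lipid hydrolases, changed by -1.24 ± 0.24 and -0.83 ± 0.16 (adjusted p = 0.00181 and 0.00104); on the log2(intensity + 16) scale Pnpla5 changed by -0.51. Of the genes of the last step, Dgat2 was at 11.99 ± 0.16 in AM251 livers and 11.99 ± 0.14 in vehicle livers (SD, n = 5 each), and Dgat1 had a change of 0.03. Of 11 lipid droplet genes, Cidea, which fuses droplets, alone fell. Its levels, at 5.42, 4.002, 4.60, 7.81 and 5.86 with AM251 and 8.29, 8.95, 4.87, 7.64 and 7.91 with vehicle, overlapped widely (-1.99 ± 0.49 (SE), adjusted p = 0.0182). Under some alternatives the threshold was missed by Pnpla3 in the fit on the 10 arrays alone (adjusted p = 0.106) and Cidea in the fit on the 10 arrays alone, without vehicle array 1 or 2 or without AM251 array 35 or 37 (adjusted p from 0.0599 to 0.238).

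Part of mitochondrial fatty acid oxidation rose, by less than 1 unit per gene. Of 17 measured genes, 7 rose and 1 fell, with a median of 0.37, where 0.888% of all genes rose and 1.02% fell. For 11 of the 17 every AM251 liver was above every vehicle liver, where 2.02% of all genes were so placed. Hadhb, the beta subunit of the trifunctional protein, was at 12.10, 12.22, 12.05, 11.97 and 11.98 with AM251, against 11.29, 11.40, 11.34, 11.34 and 11.69 with vehicle. The AM251 livers were all above the vehicle livers, and vehicle array 5 was the highest of its group. The change of Hadhb was 0.65 ± 0.09 (SE), adjusted p = 1.21e-05. Its partner Hadha changed by 0.51 ± 0.09 (4 of its 5 probe sets between 0.51 and 0.62, a dim one at -0.04), the long-chain dehydrogenases Acadl and Acadvl by 0.42 ± 0.08 and 0.33 ± 0.08, the enoyl-CoA isomerase Eci1 by 0.44 ± 0.10, and Cpt2, which reforms acyl-CoA inside the mitochondrion, by 0.52 ± 0.11. Bdh1, which interconverts ketone bodies, changed by 0.47 ± 0.12. Adjusted p for these 6 lay between 0.000333 (Hadha) and 0.0277 (Bdh1).

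The entry step itself, Cpt1a, was not called in the main fit. It was likewise not called in 14 of 17 alternatives and passed in the others (adjusted p from 0.00897 to 0.295). Cpt1a was at 12.69, 12.38, 12.16, 12.63 and 12.61 with AM251 and 12.003, 11.89, 11.92, 12.09 and 12.57 with vehicle, with the highest vehicle array, 5, inside the AM251 range (0.40 ± 0.12 (SE), adjusted p = 0.0961). Acsl5, which activates fatty acids for several fates, was the member that fell (-0.76 ± 0.14 (SE), adjusted p = 0.000647). Not every setting kept the call, which was lost for Hadha with the mean of all probe sets (adjusted p = 0.479), Acadvl without vehicle array 2 or 4 (adjusted p from 0.053 to 0.0538), Eci1 in the fit on the 10 arrays alone or without vehicle array 3 (adjusted p from 0.0535 to 0.0799) and Bdh1 without vehicle array 1, 2, 3 or 4 or without AM251 array 35, 37 or 39 (adjusted p from 0.0507 to 0.146). Counting members past the threshold, the list ranged from 6 to 12 over all the settings tried.

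Some thioesterases, and 1 transporter, around the beta-oxidation spiral rose too. Acot1, a cytosolic thioesterase that frees fatty acids from CoA, was at 10.16, 10.96, 10.57, 10.15 and 10.14 with AM251, against 8.07, 7.51, 7.56, 8.005 and 9.39 with vehicle. The groups were apart, with vehicle array 5 nearest, and Acot1 rose by 4.89-fold (2.29 ± 0.33 (SE), adjusted p = 1.7e-05). Of 9 thioesterases 4 rose, the others being Acot2, Acot3 and Acot4 at 0.71 ± 0.18, 1.65 ± 0.37 and 0.67 ± 0.16, whose vehicle array 5 lay within the AM251 range. The other 5 were not past the threshold, and for 2 of them, Acot5 and Acot13 at -0.19 and -0.24, every AM251 liver was below every vehicle liver, as for 1.8% of all genes. Probes were not checked for cross-hybridization between such close paralogs. Slc22a5, the carnitine importer, which was chosen after its values were seen, was at 8.998, 9.35, 9.14, 9.15 and 8.93 with AM251, against 8.55, 7.75, 7.62, 7.89 and 8.69 with vehicle. All AM251 livers were higher, and the change was 1.01 ± 0.18 (SE), adjusted p = 0.000414. In the peroxisome Eci2 rose (0.78 ± 0.13 (SE), adjusted p = 0.000231), while Ehhadh and Crot, at 0.58 ± 0.16 and 0.50 ± 0.15, were not past the threshold. Alternatives ended the call of Acot2 in the fit on the 10 arrays alone, without vehicle array 1, 2, 3 or 4 or without AM251 array 33, 35, 38 or 39 (adjusted p from 0.0526 to 0.173), Acot3 in the fit on the 10 arrays alone (adjusted p = 0.103) and Acot4 in the fit on the 10 arrays alone, without vehicle array 2 or 3 or without AM251 array 35, 38 or 39 (adjusted p from 0.0517 to 0.114).

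Of 9 measured genes listed as PPARalpha-related signals, all 9 were higher on average with AM251 and 1 rose (0.888% of all genes did). Some other genes that PPARalpha is known to raise were lower on average and not past the threshold, among them Pdk4 (-0.83), Vldlr (-0.46) and Cd36 (-0.25). Angptl4, a secreted inhibitor of lipoprotein lipase, was at 10.76, 10.93, 10.99, 10.93 and 10.68 with AM251 and 9.81, 9.37, 8.79, 9.70 and 10.71 with vehicle, where 1 vehicle liver overlapped the AM251 livers (1.18 ± 0.33 (SE), adjusted p = 0.0557). Cyp4a14, a fatty acid omega-hydroxylase, had a change of 1.59 ± 0.45 (SE), adjusted p = 0.0526, Ppara itself 0.46 ± 0.17 (SE), adjusted p = 0.216, and Fgf21, a hormone of fasting, 0.48 ± 0.29 (SE), adjusted p = 0.572, or 0.11 without AM251 array 38. Creb3l3, a hepatic membrane-bound transcription factor, rose (0.60 ± 0.11 (SE), adjusted p = 0.00139), as did Cyp4f13 (0.51 ± 0.09 (SE), adjusted p = 0.000381) and the very-long-chain acyl-CoA synthetase and transporter Slc27a2 (0.52 ± 0.10 (SE), adjusted p = 0.00185). No gene of 26 measured for oxidative phosphorylation passed, and their changes lay between -0.15 and 0.21.

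**Figure D2:**
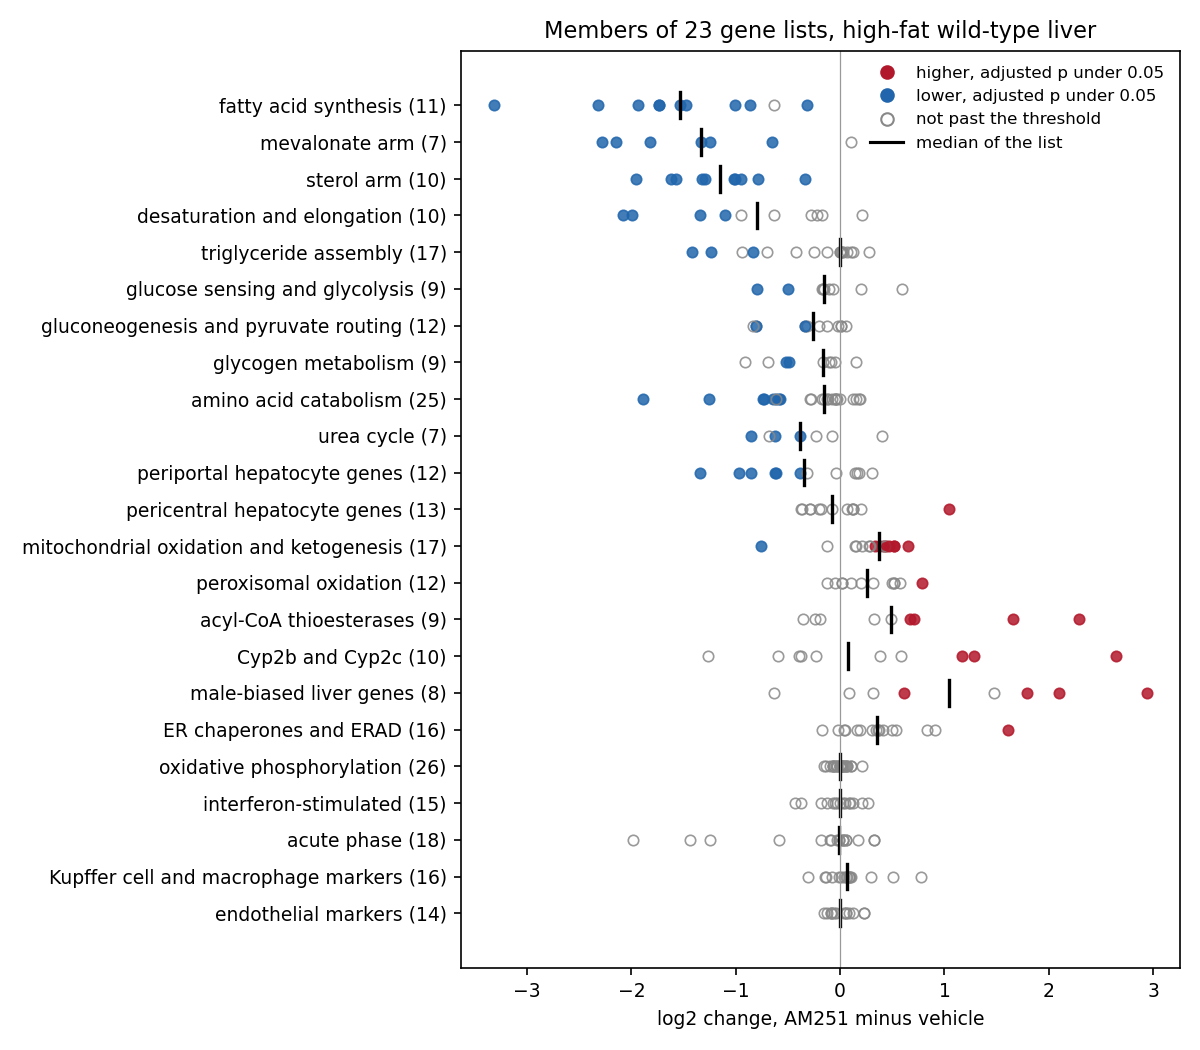
Log2 change, AM251 minus vehicle, of each measured member of 23 gene lists in high-fat wild-type liver, with the number of measured members in brackets. Filled points passed an adjusted p of 0.05 and vertical bars are list medians; the synthesis lists lie left of 0, mitochondrial oxidation lies mostly right of it, and the medians of oxidative phosphorylation and the cell marker lists are near 0.

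Some genes of sugar handling passed, and those that did fell. Of 9 measured genes of glucose sensing and glycolysis 2 fell, and of 9 of glycogen metabolism 2 did, where 1.02% of all genes fell. Khk, which commits fructose to metabolism, changed by -0.79 ± 0.12 (SE), adjusted p = 4.2e-05, and Gckr, a regulator of hepatic glucose use, by -0.50 ± 0.08 (SE), adjusted p = 8.06e-05. Mlxipl, the gene of the sugar-responsive factor ChREBP, was not past the threshold (0.20 ± 0.13 (SE), adjusted p = 0.589). Among 12 gluconeogenic and pyruvate genes 2 fell, Fbp1 (-0.34 ± 0.07 (SE), adjusted p = 0.00164) and Pdk1, an inhibitor of pyruvate dehydrogenase (-0.81 ± 0.16 (SE), adjusted p = 0.00221). Pck1, the rate-setting enzyme of gluconeogenesis, was at 10.75, 11.11, 11.19, 11.10 and 10.72 with AM251 and 11.70, 10.98, 11.22, 11.19 and 11.36 with vehicle, ranges that overlapped (-0.32 ± 0.20 (SE), adjusted p = 0.579). G6pc, which releases free glucose, had a change of -0.81 ± 0.24 (SE), adjusted p = 0.0803. It stayed short of the threshold in 15 of 17 alternatives and passed in the others (adjusted p from 0.0278 to 0.301). Glycogen branching enzyme Gbe1 and liver phosphorylase Pygl fell as well, with changes of -0.52 and -0.49 (adjusted p = 0.00547 and 0.00836). None of 11 insulin signalling genes passed.

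Some steps of amino acid breakdown and of the urea cycle fell. Of 25 measured catabolic genes 8 fell and 0 rose, and of 7 urea cycle genes 3 fell. Over all genes 1.02% fell and 0.888% rose. Got1, the cytosolic aspartate aminotransferase, was at 10.06, 10.11, 10.06, 9.65 and 9.95 with AM251, against 11.72, 12.07, 12.25, 11.96 and 11.28 with vehicle. Every AM251 liver was over 1 unit below every vehicle liver, and Got1 fell by 3.7-fold (-1.89 ± 0.22 (SE), adjusted p = 3.29e-07). Tat, which starts tyrosine breakdown, was at 11.63, 11.70, 11.49, 11.72 and 11.32 with AM251, against 13.15, 12.73, 13.36, 12.62 and 12.31 with vehicle. These did not overlap either, and the change was -1.26 ± 0.18 (SE), adjusted p = 1.68e-05. Further along the same route Hgd fell (-0.59 ± 0.09 (SE), adjusted p = 0.000103), whereas Hpd and Fah differed by -0.04 and -0.05 and were not past the threshold. The transsulfuration enzymes Cbs and Cth, which make cysteine from homocysteine, changed by -0.64 ± 0.11 and -0.73 ± 0.17 (adjusted p = 0.000355 and 0.0098). Kynu, of tryptophan breakdown, changed by -0.74 ± 0.13 (SE), adjusted p = 0.000252, while Tdo2, the first enzyme of that route, differed by 0.00 with an adjusted p of 1. Histidine ammonia-lyase, Hal, and proline dehydrogenase, Prodh, changed by -0.62 ± 0.16 and -0.58 ± 0.14. The calls were lost for Hal in the fit on the 10 arrays alone, without vehicle array 1 or 3 or without AM251 array 38 or 39 (adjusted p from 0.064 to 0.108) and Prodh without vehicle array 1 or 3 or without AM251 array 35 (adjusted p from 0.0608 to 0.11).

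Ass1, which joins citrulline and aspartate, was at 12.96, 12.92, 13.07, 12.87 and 13.08 with AM251, against 13.81, 13.89, 13.98, 13.81 and 13.68 with vehicle. Both groups were tight and they did not meet (-0.85 ± 0.09 (SE), adjusted p = 6.79e-08). The next enzymes of the cycle, Asl and Arg1, changed by -0.63 ± 0.10 and -0.38 ± 0.07 (adjusted p = 0.000109 and 0.00127). Otc, the mitochondrial step before Ass1, had a change of -0.23 ± 0.09 (SE), adjusted p = 0.229, and the AM251 arrays of 5 of the 7 genes were all below their vehicle arrays, where the share over all genes was 1.8%. Several of these genes are known as periportal, and 6 of 12 periportal genes fell, Ass1, Asl, Arg1, Hal, Aldh1b1 (-1.34 ± 0.22) and Etnppl (-0.97 ± 0.21). Cyp2f2, Hsd17b13 and Cdh1, also periportal, differed by 0.31, 0.14 and 0.18 and were not past the threshold. Of 13 pericentral genes 1 rose, Cyp1a2, and Glul and Cyp2e1 differed by -0.07 and 0.13.

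Among 17 measured hepatokines, proteins that liver secretes to act elsewhere, 2 rose and 1 fell (0.888% and 1.02% of all genes). Fst, follistatin, which binds activins, was at 3.99, 4.58, 3.91, 6.07 and 5.37 with AM251, against 6.33, 8.05, 8.47, 7.47 and 6.72 with vehicle. AM251 array 38 came nearest the lowest vehicle liver, array 1, without reaching it, and Fst fell by 6.17-fold (-2.62 ± 0.40 (SE), adjusted p = 4.51e-05). Igfbp2, an insulin-like growth factor binding protein, rose (1.14 ± 0.23 (SE), adjusted p = 0.00234) with 1 vehicle array above the lowest AM251 array, and Fetub, a serum protease inhibitor, rose (0.43 ± 0.09 (SE), adjusted p = 0.00357). None of 18 acute phase genes or 15 interferon-stimulated genes passed. Of 16 chemokines and cytokines Ccl9 rose (0.63 ± 0.16 (SE), adjusted p = 0.0221). Under some alternatives the threshold was missed by Igfbp2 in the fit on the 10 arrays alone (adjusted p = 0.082) and Ccl9 with the mean of all probe sets, without vehicle array 1, 2, 4 or 5 or without AM251 array 35 or 37 (adjusted p from 0.0531 to 0.0818).

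Of 8 measured genes known to be higher in male than in female mouse liver, 4 rose (0.888% of all genes did). The spread among vehicle livers was wide. Hsd3b5, a steroid reductase of male liver, was at 11.89, 12.07, 12.51, 10.57 and 10.67 with AM251, against 9.07, 4.42, 11.24, 8.45 and 9.82 with vehicle. Vehicle array 2 was far below the others while vehicle array 3 lay within the AM251 range (2.94 ± 0.63 (SE), adjusted p = 0.00474). Slco1a1, a bile acid and steroid importer, was at 10.27, 10.49, 10.85, 9.76 and 9.99 with AM251, against 8.19, 4.50, 10.13, 8.56 and 9.52 with vehicle. Array 2 was again lowest and array 3 inside the AM251 range (2.10 ± 0.52 (SE), adjusted p = 0.0195). Without vehicle array 2 the changes of Hsd3b5 and Slco1a1 were 1.90 and 1.17. Cyp7b1, an oxysterol hydroxylase, was at 9.22, 8.85, 8.86, 9.38 and 8.70 with AM251, against 7.82, 6.22, 7.55, 6.93 and 7.55 with vehicle. For this gene the groups were apart, and it rose by 3.45-fold (1.79 ± 0.28 (SE), adjusted p = 7.54e-05).

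Vehicle array 2 was also the lowest of its group for Serpina1e (0.61 ± 0.11 (SE), adjusted p = 0.000998) and Lifr. Lifr, the receptor of leukemia inhibitory factor, was at 10.56, 10.64, 10.82, 9.99 and 9.91 with AM251, against 9.45, 8.24, 9.86, 8.91 and 9.46 with vehicle, and did not overlap (1.20 ± 0.24 (SE), adjusted p = 0.00215); the mean of its 3 probe sets gave 0.79. Over the male-biased list vehicle array 2 stood at -1.42 from the vehicle mean, the other vehicle livers between 0.08 and 0.77 and the AM251 livers between 0.83 and 1.29. Without vehicle array 2, 233 genes passed in place of 366, 87 higher and 146 lower, 231 of them among the 366. Vehicle array 2 also stood apart in the circadian clock, whose outputs rise and fall over the day, with the lowest Dbp, at 10.38, 10.01, 10.77, 10.37 and 10.68 with AM251 and 9.07, 6.69, 9.96, 9.66 and 10.37 with vehicle, and the highest Arntl, at 6.13, 5.999, 4.68, 5.67 and 4.88 with AM251 and 7.05, 7.96, 6.38, 6.12 and 5.64 with vehicle. Of 19 clock genes Hlf rose (0.57 ± 0.15 (SE), adjusted p = 0.0282), and Dbp and Arntl were not past the threshold (1.29 ± 0.80 and -1.16 ± 0.45). Of the growth hormone axis, which sets the sex differences, Igfals rose (0.67 ± 0.16 (SE), adjusted p = 0.013), and Igf1, Ghr, Socs2 and Cish differed by 0.22 ± 0.10, 0.01 ± 0.11, 1.33 ± 0.67 and -0.03 ± 0.55, none past the threshold. Of 13 genes known to be higher in females, Cyp17a1, a steroid hydroxylase and lyase, fell (-1.63 ± 0.27 (SE), adjusted p = 0.000182) with 1 vehicle array inside the AM251 range, and Acot3 rose. Not every setting kept the call, which was lost for Hsd3b5 in the fit on the 10 arrays alone (adjusted p = 0.153), Slco1a1 in the fit on the 10 arrays alone, without vehicle array 2 or without AM251 array 35 or 37 (adjusted p from 0.0539 to 0.234), Serpina1e in the fit on the 10 arrays alone (adjusted p = 0.114), Igfals in the fit on the 10 arrays alone or without vehicle array 2 or 4 (adjusted p from 0.0552 to 0.102) and Hlf without vehicle array 2 or 3 or without AM251 array 35, 37, 38 or 39 (adjusted p from 0.0564 to 0.153).

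A few drug-handling cytochromes rose. Cyp2b10, the classic target of the receptor CAR, was at 5.80, 8.62, 8.50, 6.48 and 8.43 with AM251, against 4.61, 5.33, 4.79, 4.83 and 5.05 with vehicle. Arrays 35, 37 and 39 were far above arrays 33 and 38, all were above the vehicle range, and this was the largest rise among genes whose groups did not overlap (2.65 ± 0.56 (SE), adjusted p = 0.00425). Cyp2c29, which epoxidizes arachidonic acid, was at 13.80, 14.13, 14.07, 13.53 and 14.07 with AM251, against 13.04, 12.45, 12.69, 12.63 and 12.36 with vehicle. Its groups were well apart (1.28 ± 0.12 (SE), adjusted p = 5.44e-09). Cyp2c50 rose as well (1.17 ± 0.27 (SE), adjusted p = 0.00945), and 3 of 10 Cyp2b and Cyp2c genes did in all. Cyp1a2, a pericentral cytochrome of caffeine and heme metabolism, was at 12.69, 12.74, 12.54, 12.31 and 12.48 with AM251, against 11.95, 10.94, 12.13, 11.34 and 11.17 with vehicle, with no overlap (1.05 ± 0.17 (SE), adjusted p = 0.000103). The receptor genes Nr1i3 (CAR) and Nr1i2 (PXR) changed by 0.75 ± 0.16 and 0.59 ± 0.14 (adjusted p = 0.00536 and 0.0128), while Cyp3a11, a PXR target, was not past the threshold (0.21 ± 0.15 (SE), adjusted p = 0.649). Of 20 xenobiotic receptor and target genes 4 rose and 1 fell, the aldehyde dehydrogenase gene Aldh1a7 (-0.41 ± 0.10 (SE), adjusted p = 0.0149). Over all genes 0.888% rose and 1.02% fell. Alas1, the rate-setting enzyme of heme synthesis, was at 13.31, 12.84, 13.42, 12.91 and 12.92 with AM251 and 11.81, 11.14, 12.01, 11.87 and 12.18 with vehicle. It did not overlap and yet was not past the threshold (1.28 ± 0.40 (SE), adjusted p = 0.109). That SE rests on the spread within all 8 liver groups, not on these 10 arrays alone. Alternatives ended the call of Cyp2c50 without vehicle array 2 (adjusted p = 0.0753), Nr1i2 in the fit on the 10 arrays alone, without vehicle array 2 or 3 or without AM251 array 35 (adjusted p from 0.0549 to 0.0798) and Aldh1a7 without vehicle array 2 or 4 or without AM251 array 35 (adjusted p from 0.0549 to 0.0739).

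Of 5 measured glutathione transferases of the mu class 3 fell. Gstm3 was at 7.27, 7.59, 6.97, 7.47 and 7.60 with AM251, against 8.82, 10.91, 9.02, 9.66 and 8.48 with vehicle. Vehicle array 2 was the highest, the groups did not overlap, and the change was -1.998 ± 0.31 (SE), adjusted p = 8.28e-05. Gstm2 and Gstm6 changed by -1.21 ± 0.24 and -1.01 ± 0.17, Gstm4 and Gstm5 were not past the threshold at -0.27 and -0.20, and Gstt2, of the theta class, rose (0.88 ± 0.16 (SE), adjusted p = 0.000869). Of 17 glutathione and antioxidant genes 13 were not past the threshold, among them Gclc, of glutathione synthesis (-0.03), and Txnrd1, thioredoxin reductase (0.03). Whether probe sets of close mu-class paralogs share signal was not tested. Of 12 carboxylesterases Ces2a and Ces4a rose (0.59 ± 0.12 and 0.78 ± 0.20), and the conjugating enzyme Ugt2b34 rose (0.39 ± 0.09). The calls were lost for Ces2a in the fit on the 10 arrays alone (adjusted p = 0.101), Ces4a in the fit on the 10 arrays alone, without vehicle array 2 or 4 or without AM251 array 33, 37 or 38 (adjusted p from 0.0768 to 0.201) and Ugt2b34 without vehicle array 2 or 4 or without AM251 array 37 (adjusted p from 0.0505 to 0.0542).

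Of 14 measured genes of the endocannabinoid system 1 rose. Abhd6, a hydrolase of the endocannabinoid 2-arachidonoylglycerol, was at 7.84, 7.85, 8.13, 8.36 and 7.95 with AM251, against 7.16, 6.86, 6.97, 6.87 and 7.42 with vehicle. The groups did not overlap, and the change was 0.97 ± 0.15 (SE), adjusted p = 7.37e-05. Mgll, the main hydrolase of the same lipid, had a change of 0.44 ± 0.19 (SE), adjusted p = 0.324, and Faah, which degrades anandamide, of -0.07 ± 0.11 (SE), adjusted p = 0.881. Cnr1, the gene of CB1, was at 5.81, 5.78, 5.83, 5.71 and 6.05 with AM251 and 5.51, 5.92, 5.94, 5.99 and 5.90 with vehicle. These ranges overlapped (-0.02 ± 0.11 (SE), adjusted p = 0.982), the second probe set was dim at a mean of 2.66, and the part of the transcript that either probe set covers was not used here.

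Few bile acid, lipoprotein and phospholipid genes passed the threshold. Of 16 bile acid genes Cyp7b1 and Amacr, a racemase of bile acid and branched-chain fatty acid breakdown, rose (0.47 ± 0.08 for Amacr), while Cyp7a1, the rate-limiting enzyme of bile acid synthesis, was not past the threshold (0.62 ± 0.39 (SE), adjusted p = 0.595, with a change of 0.30 without AM251 array 37). Of 14 apolipoprotein and lipoprotein genes Tm6sf2, which acts in VLDL lipidation, fell (-0.79 ± 0.18 (SE), adjusted p = 0.0101). Of 14 phospholipid and methyl group genes Pcyt2, of phosphatidylethanolamine synthesis, and Gnmt, the main hepatic consumer of S-adenosylmethionine, fell (-0.51 ± 0.11 and -0.39 ± 0.07). In that list 11 genes were lower on average with AM251, and for 5, with Pemt, Bhmt and Mat1a beside these 2, every AM251 liver was below every vehicle liver (1.8% of all genes). Under some alternatives the threshold was missed by Tm6sf2 without AM251 array 38 (adjusted p = 0.0511).

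Further large changes were seen in genes of other routes. Derl3, of endoplasmic reticulum-associated degradation, was at 7.83, 7.40, 8.001, 8.52 and 6.97 with AM251, against 6.48, 6.06, 5.73, 5.76 and 6.63 with vehicle. It did not overlap (1.61 ± 0.26 (SE), adjusted p = 0.000103), and it was the only one of 16 chaperone and degradation genes past the threshold, with a list median of 0.36. In that list 14 genes were higher on average with AM251, and for 5 (Derl3, Sdf2l1, Xbp1, Herpud1 and Pdia6) every AM251 liver was above every vehicle liver, where 2.02% of all genes were so placed. Sdf2l1, a chaperone cofactor, differed by 0.91 and Hspa5, the chaperone BiP, by 0.04. Pla2g12a, a secreted phospholipase, was at 7.58, 8.19, 7.71, 7.57 and 7.84 with AM251, against 6.70, 6.16, 6.15, 6.71 and 6.75 with vehicle. The groups were clearly apart (1.28 ± 0.15 (SE), adjusted p = 2.91e-07). Nlrp12, an inflammasome-family regulator, was at 9.64, 10.23, 10.16, 9.55 and 9.81 with AM251, against 8.33, 7.87, 7.68, 8.73 and 9.24 with vehicle, again without overlap (1.51 ± 0.25 (SE), adjusted p = 0.000182). No member of the heat shock and immediate early list (12 measured), the glucocorticoid and metallothionein list (12) or the cell cycle list (20) passed, and of 15 amino acid stress response genes Atf3 fell (-0.54 ± 0.14 (SE), adjusted p = 0.0236). An alternative ended the call of Atf3 in the fit on the 10 arrays alone, without vehicle array 2 or 3 or without AM251 array 35, 37 or 39 (adjusted p from 0.0519 to 0.132).

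Among the other 15 largest rises, Nmrk1, a nicotinamide riboside kinase, changed by 1.22 ± 0.27, Eif4ebp3, an inhibitor of translation initiation, by 1.14 ± 0.22, Keg1 by 1.14 ± 0.22, Gpcpd1, a glycerophosphocholine hydrolase, by 1.36 ± 0.36, E2f8, a repressor of the E2F family, by 1.19 ± 0.31 and Osgin1, a gene of the oxidative stress response, by 1.15 ± 0.26. Among the 15 largest falls, Rdh11, a retinol dehydrogenase known as an SREBP target, changed by -1.98 ± 0.23 (SE), adjusted p = 2.89e-07, and Aqp8, a water channel, by -1.83 ± 0.29 (SE), adjusted p = 0.000106. A second probe set of E2f8 gave -0.09. Not every setting kept the call, which was lost for Gpcpd1 on the log2(intensity + 16) scale, with a robust trended variance prior, without vehicle array 1, 2 or 4 or without AM251 array 35, 37, 38 or 39 (adjusted p from 0.0503 to 0.198), E2f8 with the mean of all probe sets, with a robust trended variance prior, without vehicle array 1, 2 or 3 or without AM251 array 33 or 37 (adjusted p from 0.0506 to 0.151) and Osgin1 without vehicle array 4 (adjusted p = 0.0634).

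**Figure D3:**
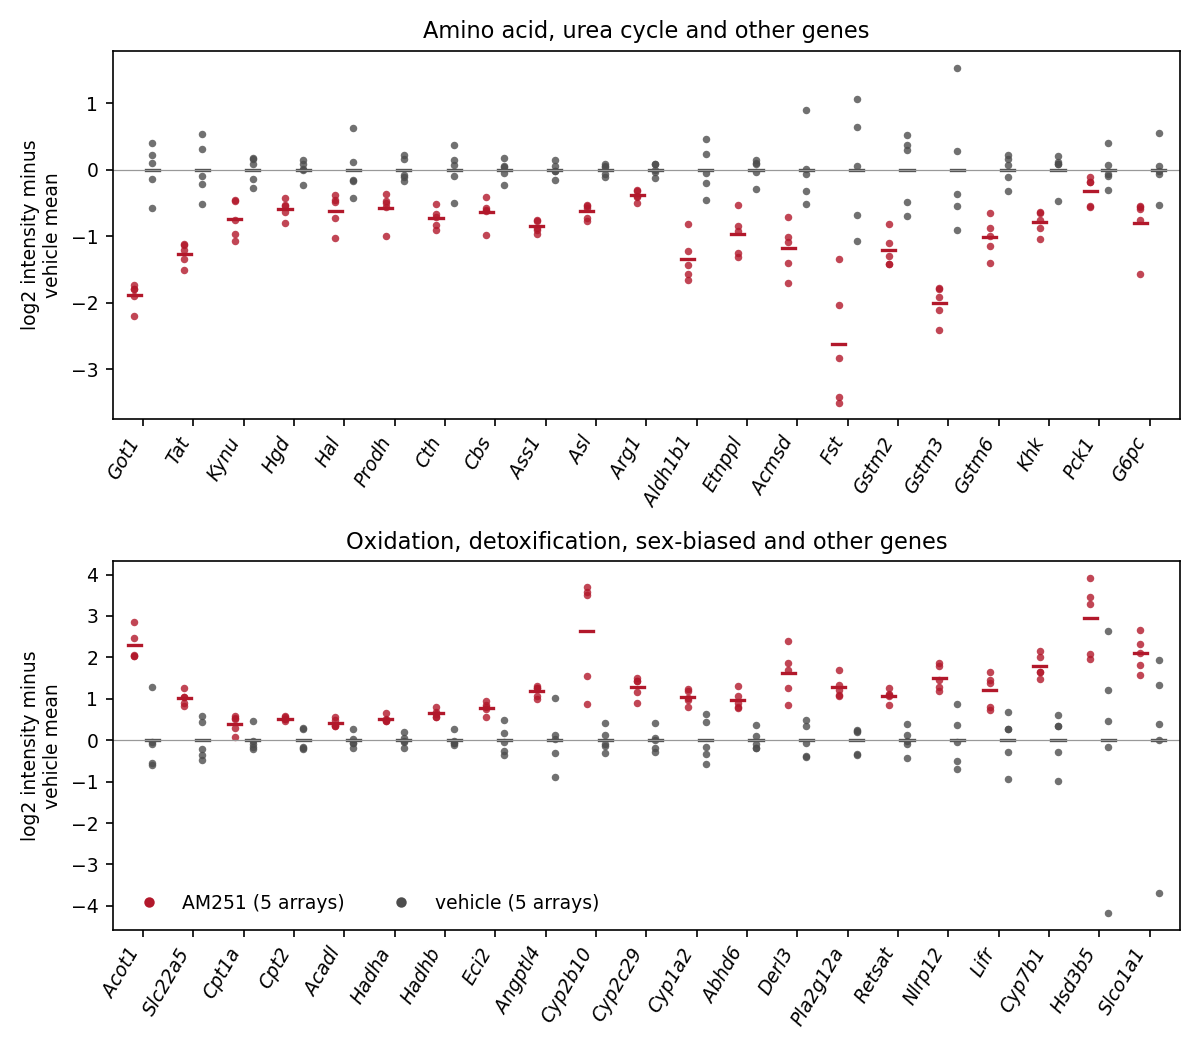
Log2 intensity of each array minus the mean of the 5 vehicle arrays for genes that were lower (upper panel) or higher (lower panel) with AM251 in high-fat wild-type liver, outside lipid synthesis. Points are arrays and short bars are group means. Pck1, G6pc, Cpt1a and Angptl4 are plotted although they did not pass the threshold in the main fit. Hsd3b5 and Slco1a1 show vehicle array 2 far below the others.

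These changes were then set beside the same treatment in high-fat-fed knockout liver, and the difference between the 2 effects was tested. The effect differed between genotypes for 108 genes (0.564% of those tested), 37 with a more positive and 71 with a more negative effect in wild-type liver. With quantile normalization the split was 30 and 100. Leaving out single arrays gave 66 to 136 genes, the lowest counts being 66, 67 and 70 without knockout AM251 array 46, knockout vehicle array 42 or wild-type vehicle array 4. Cnr1, the deleted gene, averaged 5.84 ± 0.19 (SD, n = 5) in knockout livers with AM251 and 5.83 ± 0.20 (SD, n = 4) with vehicle, within the range of the wild-type livers, so this probe set did not check the genotype labels. Within knockout liver 2 genes passed (0.0104%), Cyp2c29 and Cyp2c55, and 644 genes had an unadjusted p under 0.05, where 957 are expected by chance. The comparisons share the wild-type arrays, so each is given by its own values.

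For cholesterol synthesis the knockout changes were near 0, with medians of -0.11 and -0.04 in the 2 arms and no member past the threshold. The difference between genotypes (0.371% of all genes more negative) passed for 4 of 7 and 5 of 10 members. Fdps averaged 11.70 ± 0.55 (SD, n = 5) in knockout livers with AM251 and 11.67 ± 0.25 (SD, n = 4) with vehicle, and its difference was -2.31 ± 0.31 (SE), adjusted p = 5.25e-05. Insig1 averaged 12.24 ± 0.21 in knockout livers with AM251 and 12.19 ± 0.16 with vehicle, and its difference was -1.71 ± 0.22 (SE), adjusted p = 1.51e-05.

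For fatty acid synthesis the knockout median was 0.16, and 8 of 11 members differed by genotype. Fasn averaged 9.10 ± 0.28 (SD, n = 5) with AM251 and 8.09 ± 0.57 (SD, n = 4) with vehicle in knockouts, a change of 1.01 ± 0.36 (SE), adjusted p = 0.999, opposite in sign to wild-type liver and not past the threshold. The difference was -4.33 ± 0.50 (SE), adjusted p = 3.63e-06, the largest of all 19147 genes. Acly, Elovl6 and Thrsp had knockout changes of 0.35 ± 0.32, 0.82 ± 0.30 and 0.88 ± 0.35 and differences of -2.67, -2.81 and -2.62 (adjusted p = 0.000766, 9.87e-05 and 0.00313). The other genes with the most negative differences were Fst (-3.06 ± 0.58 (SE), adjusted p = 0.00373), Gstm3 (-2.41 ± 0.46 (SE), adjusted p = 0.00373) and Got1 (-2.21 ± 0.32 (SE), adjusted p = 9.33e-05).

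The most positive differences were those of Acot1 (2.29 ± 0.48 (SE), adjusted p = 0.012), Cyp7b1 (2.15 ± 0.40 (SE), adjusted p = 0.00372), E2f8 (2.04 ± 0.45 (SE), adjusted p = 0.0181), Osgin1 (2.01 ± 0.38 (SE), adjusted p = 0.00417), Derl3 (1.65 ± 0.37 (SE), adjusted p = 0.0234), Nlrp12 (1.62 ± 0.36 (SE), adjusted p = 0.0218), Lifr (1.50 ± 0.35 (SE), adjusted p = 0.0281) and B930025P03Rik (1.47 ± 0.30 (SE), adjusted p = 0.00838). Of the mitochondrial oxidation genes 3 of 17 differed by genotype, all more positive, where 0.193% of all genes were. All 3 urea cycle genes that fell also differed, all more negative, where 0.371% of all genes were. Ass1 differed by -0.91 ± 0.13 (SE), adjusted p = 9.9e-05. The call of a difference was lost for B930025P03Rik in the fit on the compared groups alone (adjusted p = 0.0506), E2f8 with the mean of all probe sets or without knockout vehicle array 42 (adjusted p from 0.0507 to 0.086), Derl3 without AM251 array 37 or 38, vehicle array 3 or 4, knockout AM251 array 46 or 48 or knockout vehicle array 40 or 41 (adjusted p from 0.051 to 0.0673), Nlrp12 without AM251 array 35, vehicle array 2 or 3, knockout AM251 array 46 or 49 or knockout vehicle array 42 (adjusted p from 0.0501 to 0.104) and Lifr in the fit on the compared groups alone, with the mean of all probe sets or without AM251 array 33, 35 or 37, vehicle array 2 or 4, knockout AM251 array 46 or knockout vehicle array 42 or 44 (adjusted p from 0.0518 to 0.149).

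Of the drug-handling cytochromes, Cyp2c29 and Cyp2c55 passed the threshold in knockout livers. Cyp2b10 had values of 2.65 ± 0.56 in wild-type and 2.25 ± 0.60 (SE), adjusted p = 0.999 in knockout livers, where it was not past the threshold, and a difference of 0.39 ± 0.82 (SE), adjusted p = 0.978, with a 95% interval of -1.27 to 2.06. The 95% interval of its knockout change, not adjusted for the number of genes, was 1.04 to 3.46. In chow-fed wild-type liver its change was 0.90 (-0.24 to 2.04). Its high-fat minus chow difference was 1.74 (0.13 to 3.36), not past the threshold. Cyp2c29 had 1.28 ± 0.12 in wild-type and 1.18 ± 0.13 (SE), adjusted p = 9.4e-07 in knockout livers, and a difference of 0.10 ± 0.18 (SE), adjusted p = 0.971, with a 95% interval of -0.26 to 0.46. Cyp2c50 and Cyp1a2, at 0.67 ± 0.28 and 0.17 ± 0.18 in knockout livers, were not past it there. Cyp2c55, a cytochrome also known as a target of CAR and PXR, was at 5.79, 6.99, 6.78, 6.10 and 6.85 in wild-type livers with AM251 and 6.08, 6.18, 6.30, 6.24 and 5.78 with vehicle, ranges that overlapped (0.39 ± 0.31 (SE), adjusted p = 0.71). In knockout livers it averaged 8.37 ± 0.41 with AM251 and 5.80 ± 0.13 with vehicle, a change of 2.57 ± 0.33 (SE), adjusted p = 3.09e-05. The difference, wild-type minus knockout, was -2.18 ± 0.46 (SE), adjusted p = 0.0124. On chow, wild-type livers averaged 8.33 ± 0.40 with AM251 and 8.20 ± 0.55 with vehicle, both near the level of knockout livers with AM251. A p above the threshold does not show that the Cyp2b10 or Cyp2c29 effects were equal in the genotypes.

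**Figure D4:**
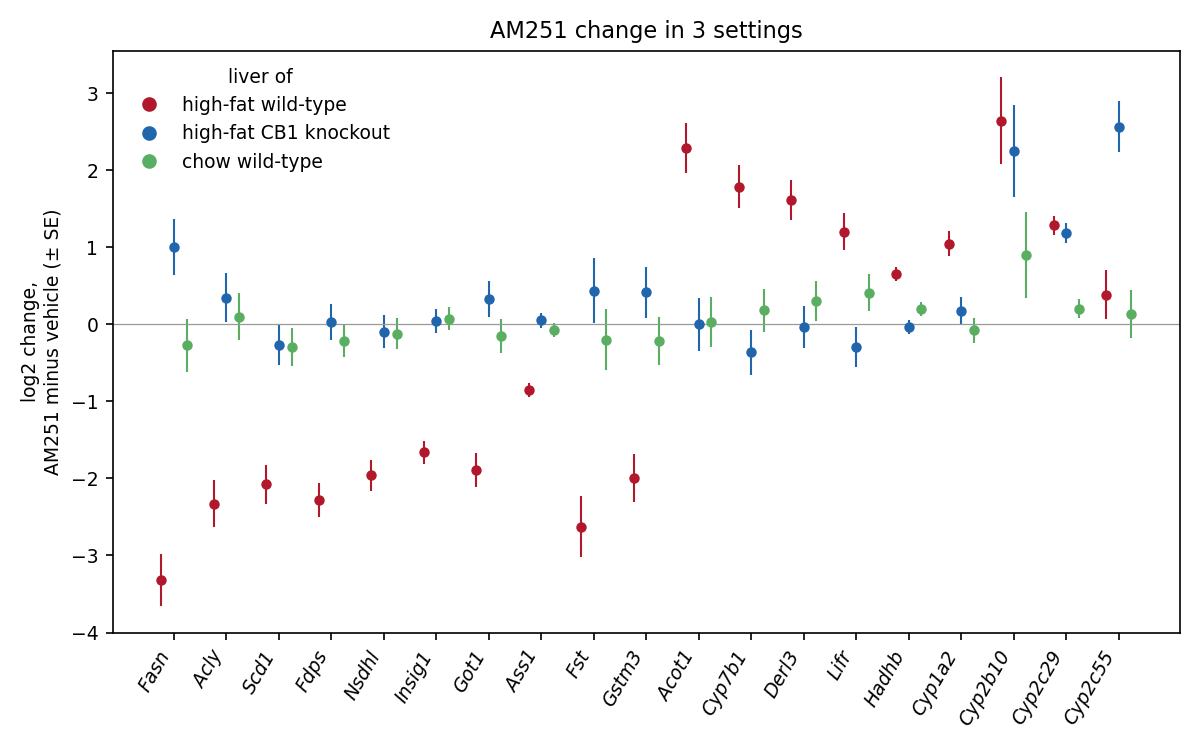
Log2 change ± SE, AM251 minus vehicle, of 19 genes in livers of high-fat wild-type, high-fat CB1 knockout and chow wild-type mice. Synthesis genes from Fasn to Insig1 are far below 0 in high-fat wild-type liver and nearer 0 in the other 2 settings, with Fasn in knockout liver at 1.01; Cyp2b10 and Cyp2c29 are above 0 in both high-fat settings, and Cyp2c55 is highest in the knockout.

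Against chow-fed wild-type liver, the AM251 effect differed by diet for 48 genes (0.251%), with 7 effects (0.0366%) above and 41 (0.214%) below those on chow. Leaving out single arrays gave 31 to 69 genes, with 31 when chow AM251 array 13 was left out and likewise when chow vehicle array 1 was. Within chow-fed liver 0 genes passed (0%) in the limma fit, with 2066 at an unadjusted p under 0.05, where 957 are expected by chance, and 7 passed when vehicle array 5 of the chow group was left out. The most negative differences were those of Fasn (-3.05 ± 0.49 (SE), adjusted p = 0.000946), Acly (-2.43 ± 0.43 (SE), adjusted p = 0.00282), Fst (-2.42 ± 0.56 (SE), adjusted p = 0.0483), Fdps (-2.07 ± 0.31 (SE), adjusted p = 0.000526), Mvd (-1.95 ± 0.45 (SE), adjusted p = 0.0483), Rdh11 (-1.88 ± 0.32 (SE), adjusted p = 0.00188), Ntrk2 (-1.84 ± 0.40 (SE), adjusted p = 0.0245) and Nsdhl (-1.84 ± 0.29 (SE), adjusted p = 0.000946). By list, 4 of 7 mevalonate, 5 of 10 sterol and 3 of 11 fatty acid synthesis genes differed by diet, and no mitochondrial oxidation gene did. The call of a difference was lost for Fst in the fit on the compared groups alone, with the mean of all probe sets, with quantile normalization, on the log2(intensity + 16) scale, with a robust trended variance prior or without AM251 array 33, 35 or 37, vehicle array 2, 3 or 4, chow AM251 array 8, 10, 12 or 13 or chow vehicle array 1, 2, 3, 4 or 5 (adjusted p from 0.0508 to 0.126), Mvd with the mean of all probe sets, with quantile normalization, on the log2(intensity + 16) scale, with a robust trended variance prior or without AM251 array 35, 37 or 39, vehicle array 2, 3, 4 or 5, chow AM251 array 8, 12 or 13 or chow vehicle array 1, 2, 4 or 5 (adjusted p from 0.0512 to 0.126) and Ntrk2 in the fit on the compared groups alone, with the mean of all probe sets or without AM251 array 35 or 37, vehicle array 1 or 2, chow AM251 array 11 or 13 or chow vehicle array 4 (adjusted p from 0.0502 to 0.182). Ntrk2, a neurotrophin receptor, has 5 probe sets, with changes in high-fat wild-type liver between -1.62 and -0.08.

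The 7 more positive differences were those of Acot1 (2.26 ± 0.46 (SE), adjusted p = 0.0146), Cyp1a2 (1.13 ± 0.24 (SE), adjusted p = 0.0177), Pla2g12a (1.09 ± 0.21 (SE), adjusted p = 0.00765), Cyp2c29 (1.08 ± 0.17 (SE), adjusted p = 0.000946), Dgkh (0.97 ± 0.20 (SE), adjusted p = 0.0167), a diacylglycerol kinase, Adarb1 (0.74 ± 0.15 (SE), adjusted p = 0.012), an RNA-editing deaminase, and Fgf1 (0.71 ± 0.15 (SE), adjusted p = 0.0172), a growth factor with metabolic actions. The probe sets used for Dgkh and Adarb1 were dim, at mean levels of 4.06 and 4.34. Dgkh has 3 probe sets, with changes in high-fat wild-type liver of 1.04, 0.56 and 0.13. Cyp2c29 averaged 13.68 ± 0.16 with AM251 and 13.48 ± 0.17 with vehicle on chow (SD, n = 5 each), both nearer the AM251 than the vehicle mean of high-fat wild-type livers. The call of a difference was lost for Cyp1a2 in the fit on the compared groups alone or without vehicle array 2 (adjusted p from 0.0533 to 0.0551), Dgkh without vehicle array 4 (adjusted p = 0.0509), Adarb1 with the mean of all probe sets (adjusted p = 0.0767) and Fgf1 in the fit on the compared groups alone or without chow vehicle array 1 (adjusted p from 0.0512 to 0.117).

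Each gene's AM251 and vehicle means in high-fat wild-type liver were also placed against the means of the 4 other groups. The AM251 mean was below the lowest of the 4 other group means for 16 of 16 cholesterol synthesis genes that fell. The same held for 170 of all 196 genes that fell (86.7%) and for 3418 of all 19147 genes (17.9%). The vehicle mean was also below it for 13 of the 16, against 14.3% of the genes that fell and 18.3% of all genes. For the 10 fatty acid synthesis genes that fell, the AM251 mean was below all 4 for 10, and the vehicle mean was above all 4 for 7. The vehicle mean was so placed for 53.6% of the genes that fell and 23.8% of all genes. Fasn averaged 6.25 ± 0.24 with AM251 and 9.56 ± 0.996 with vehicle on the high-fat diet, and 8.07 ± 0.29 with AM251 and 8.34 ± 0.70 with vehicle on chow (SD, n = 5 each). For the 3 urea cycle genes that fell the AM251 mean was below all 4 and the vehicle mean within them.

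The male-biased genes that rose had the reverse layout, with the vehicle mean below all 4 other groups for 4 of 4 and the AM251 mean within them for 2 and below them for 2. Among all 170 genes that rose, the vehicle mean was below all 4 for 59.4% and the AM251 mean above all 4 for 78.8%. Hsd3b5 averaged 11.54 ± 0.87 with AM251 and 8.60 ± 2.56 with vehicle on the high-fat diet, and 11.92 ± 0.33 with AM251 and 11.61 ± 0.78 with vehicle on chow. Cyp7b1 averaged 9.003 ± 0.28 with AM251 and 7.22 ± 0.64 with vehicle on the high-fat diet, and 8.90 ± 0.50 with AM251 and 8.72 ± 0.59 with vehicle on chow. Cyp1a2 likewise averaged 12.55 ± 0.17 with AM251 and 11.51 ± 0.51 with vehicle, beside 12.37 ± 0.14 in high-fat knockouts and 12.58 ± 0.15 in chow-fed wild-type mice, both on vehicle. These placements are descriptions of group means, and the genes were chosen by the first contrast, so 1 of its 2 groups had to stand away from the other.

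**Figure D5:**
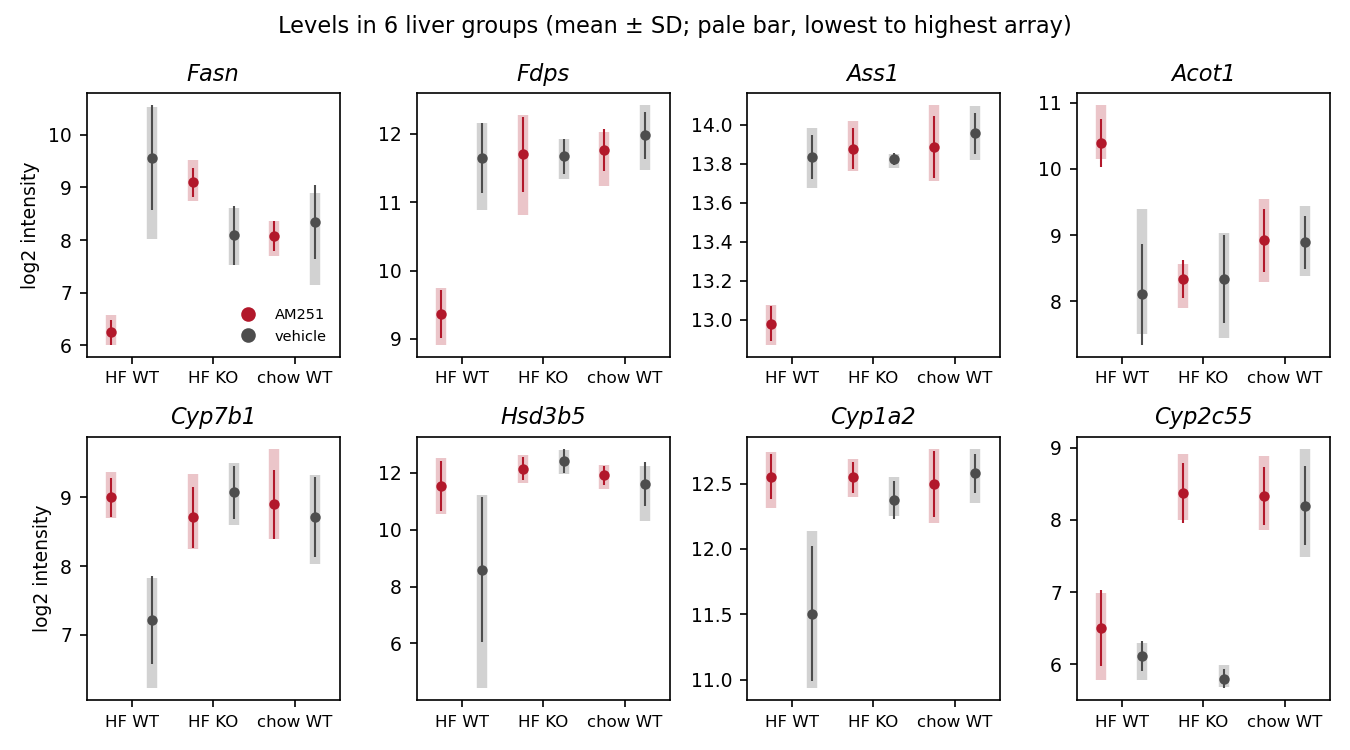
Log2 intensity of 8 genes in 6 liver groups, AM251 and vehicle in high-fat wild-type (HF WT), high-fat CB1 knockout (HF KO) and chow wild-type mice; points are means ± SD of 5 arrays (4 for HF KO vehicle) and pale bars run from the lowest to the highest array. For Fasn, Fdps, Ass1 and Acot1 the AM251 group of HF WT stands apart from the rest, and for Cyp7b1 and Cyp1a2 its vehicle group does. For Hsd3b5 the vehicle mean of HF WT is the lowest, but the wide range of its arrays overlaps that of the AM251 group. Cyp2c55 is high in HF KO with AM251 and in both chow groups.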

How the data were processed

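Liver RNA had been hybridized to 1-colour custom mouse arrays, and the authors deposited 1 linear intensity per probe set and array, normalized by RMA per the submitters' processing notes (the version is not given in the sources used here). Of 38385 probe sets, 24478 carry 1 gene name in the platform annotation, updated through RefSeq, and the probe set with the highest mean stood for each of 19147 genes. The log2 of the deposited intensity was fitted with limma 3.58.1 in R 4.3.3 over all 39 liver arrays, with 1 coefficient for each of the 8 groups and empirical Bayes moderation, and p-values were adjusted by Benjamini-Hochberg over all genes. The scripts were tested on simulated data. All columns of per-sample values were matched to samples by their labels. The labels give no batch, so none was tested, and 36 fat arrays were not used here. Each array is 1 mouse. SEs and p-values rest on the spread between mice within groups, pooled over all 8 liver groups and moderated across genes. For a single gene they can be smaller or larger than the spread of the compared arrays alone would give.

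Named genes were the 15 largest rises and falls among genes past an adjusted p of 0.05 whose AM251 and vehicle arrays did not overlap, the 8 largest differences per direction between genotypes and between diets, the members of 54 gene lists (678 of 824 entries measured), and a few chosen after their values were seen, which the text marks. The members and lists were chosen with earlier results of these data known. Alternatives were a fit on the compared groups alone, the mean of all probe sets, a filter on dim genes, quantile normalization, an offset of 16 before the logarithm, array weights, a robust trended prior and leaving out each array.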

Additional observations from a re-analysis of the deposited data

Results flagged for a closer look

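In the 222 groups looked at (37 genes in each of 6 groups of arrays), 10 held 1 array far from the others of its group, where chance alone flags about 1 group in 20. In high-fat wild-type vehicle livers, array 1 was low for Scd1 (13.66, the nearest other array being at 14.30) and for Cnr1 (5.51, nearest 5.90), and array 5 was high for Hadhb (11.69, nearest 11.40) and for Cpt1a (12.57, nearest 12.09). In chow-fed vehicle livers array 5 was low for Tat (12.90, nearest 13.16) and Cnr1 (5.66, nearest 5.98) and high for Nmrk1 (8.28, nearest 7.43). In high-fat knockout livers AM251 array 45 was low for Scd1 (12.46, nearest 14.00) and high for Cidea (4.67, nearest 4.11), and vehicle array 42 was high for Cpt1a (12.30, nearest 12.11). All values are log2 intensities.

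The AM251 effect differed between genotypes, by the test of the difference itself, for 108 genes. Wild-type minus knockout, the log2 difference was 2.29 for Acot1, 2.15 for Cyp7b1, 2.04 for E2f8, 2.01 for Osgin1, 1.65 for Derl3, 1.62 for Nlrp12, 1.50 for Lifr and 1.47 for B930025P03Rik. It was -4.33 for Fasn, -3.06 for Fst, -2.81 for Elovl6, -2.67 for Acly, -2.62 for Thrsp, -2.41 for Gstm3, -2.31 for Fdps and -2.21 for Got1.

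By the same kind of test the AM251 effect differed between diets for 48 genes. High-fat minus chow, the log2 difference was 2.26 for Acot1, 1.13 for Cyp1a2, 1.09 for Pla2g12a, 1.08 for Cyp2c29, 0.97 for Dgkh, 0.74 for Adarb1 and 0.71 for Fgf1. It was -3.05 for Fasn, -2.43 for Acly, -2.42 for Fst, -2.07 for Fdps, -1.95 for Mvd, -1.88 for Rdh11, -1.84 for Ntrk2 and -1.84 for Nsdhl.

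Outside the named genes, 68 of 13907 probe sets with no single gene name passed the threshold in high-fat wild-type liver (0.489%), 27 higher and 41 lower with AM251.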

How the results depend on the processing

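Of 138 called genes followed through up to 17 alternatives, 96 stayed past the threshold under each one that tested them and none changed sign. In high-fat wild-type liver, 625 genes passed with array weights (324 higher, 301 lower) in place of 366, and 233 to 423 when single arrays were left out, with the fewest, 233, without vehicle array 2. The fit on the 10 arrays alone called 361, of which 264 were among the 366. The genotype difference passed for 163 genes in the fit on the compared groups alone (62 more positive, 101 more negative), for 230 with array weights (90 and 140), and for 66 to 136 with single arrays left out, in place of 108. The diet difference passed for 31 to 69 genes with single arrays left out, in place of 48. In knockout liver 2 to 3 genes passed under all alternatives, and in chow-fed liver 0, except for 7, all lower, without chow vehicle array 5. For these moves the cause was not tested.

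The change of Srebf2, 0.0068, turned negative with the mean of all probe sets (-0.20), quantile normalization (-0.0102) or array weights (-0.0621), and without vehicle array 1 (-0.0549) or 3 (-0.0063) or AM251 array 35 (-0.0081) or 38 (-0.0678); with single arrays left out it ran from -0.0678 to 0.0782. That of Cnr1, -0.0153, turned positive without vehicle array 2 (0.00216), 3 (0.00711) or 4 (0.0194) or AM251 array 38 (0.0174), in a range of -0.101 to 0.0194. Neither gene passed the threshold in any of these. The differences between genotypes and diets for single genes were run through the same alternatives after the data were seen, and none reversed. No paired analysis was possible because the AM251 and vehicle arrays share no replicate numbers. An offset of 16 compresses the changes of dim genes by construction, as for Nsdhl, Pnpla5, B930025P03Rik and Dgkh.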

Other observations

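Several called genes outside the lists, all but Nmrk1 (among the 15 largest rises) chosen after their values were seen, belong to routes next to those described. In tryptophan and NAD metabolism, Acmsd, which diverts tryptophan carbon away from NAD, was at 5.99, 6.37, 6.07, 5.67 and 5.37 in AM251 livers, against 7.08, 7.01, 7.98, 6.76 and 6.56 in vehicle livers. These did not overlap (-1.18 ± 0.22 (SE), adjusted p = 0.00093). Qprt, the entry of that carbon into NAD, changed by -0.44 ± 0.08 (SE), adjusted p = 0.00121. In the salvage of NAD, Nmrk1 was at 8.07, 8.06, 9.05, 8.48 and 8.42 with AM251, against 6.89, 6.67, 7.38, 7.20 and 7.85 with vehicle, without overlap (1.22 ± 0.27 (SE), adjusted p = 0.0054), and Nampt changed by 0.59 ± 0.15 (SE), adjusted p = 0.0282. Aadat, a kynurenine and aminoadipate aminotransferase, changed by 0.56 ± 0.15 (SE), adjusted p = 0.0454. The calls were lost for Nampt without vehicle array 1, 2 or 4 or without AM251 array 37, 38 or 39 (adjusted p from 0.0603 to 0.102) and Aadat with quantile normalization, on the log2(intensity + 16) scale, without vehicle array 2, 3, 4 or 5 or without AM251 array 33, 35, 37, 38 or 39 (adjusted p from 0.0517 to 0.16).

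Some genes that supply carbon or electrons to lipid synthesis were past the threshold. Cs, citrate synthase, changed by -0.73 ± 0.11 (SE), adjusted p = 8.05e-05, Dlat, of pyruvate dehydrogenase, by -0.77 ± 0.16 (SE), adjusted p = 0.00272, and Idh1, a cytosolic source of NADPH, by -0.36 ± 0.08 (SE), adjusted p = 0.00536. Cyb5b, a cytochrome b5, changed by -0.88 ± 0.10 (SE), adjusted p = 1.8e-07 and Cyb5r3, a cytochrome b5 reductase, by -0.78 ± 0.13 (SE), adjusted p = 0.0002. Acsl3, an acyl-CoA synthetase of lipid droplets, changed by -1.34 ± 0.20 (SE), adjusted p = 4.08e-05, and Erg28, a scaffold of sterol C4 demethylation, by -0.44 ± 0.11 (SE), adjusted p = 0.019. Acat1, the mitochondrial acetoacetyl-CoA thiolase, rose (0.38 ± 0.09 (SE), adjusted p = 0.0112), as did Retsat, retinol saturase (1.08 ± 0.17 (SE), adjusted p = 0.000124). In folate and pterin metabolism Aldh1l1 changed by -0.65 ± 0.08 (SE), adjusted p = 1.12e-06 and Qdpr, which regenerates tetrahydrobiopterin, by -0.80 ± 0.11 (SE), adjusted p = 9.49e-06. The calls were lost for Cyb5r3 with the mean of all probe sets (adjusted p = 0.0504), Erg28 in the fit on the 10 arrays alone, without vehicle array 3 or 5 or without AM251 array 39 (adjusted p from 0.0635 to 0.1) and Acat1 without vehicle array 3 (adjusted p = 0.0567).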
